A study of Homo sapiens with 12 samples.

Results

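The nuclear pore complex genes described here are 29 of the 19775 genes measured in a study of MED26 depletion. They were chosen by name, with 21 symbols made of NUP and a number and 8 further genes listed by name (RANBP2, TPR, AAAS, NDC1, SEH1L, SEC13, RAE1 and POM121). Each gene was represented by the probe set selected on the highest mean log2 intensity over all 12 arrays, among probe sets that name that gene alone, so the brightness of these probe sets is a description and not a result. The study measured RNA from HEK293T cells, a human embryonic kidney line, on 12 Affymetrix expression arrays, to ask which genes respond when MED26, a subunit of the Mediator complex that links transcription factors to RNA polymerase II, is depleted. All cells were transfected with 25 nM siRNA and grown for 48 hours, in plates or dishes, and 300 ng of total RNA was labelled for each array. There were 4 groups of 3 arrays: control cells given non-targeting siRNA, and cells given s18074, s18075 or s18076, which are 3 different siRNAs against MED26. The labels name 3 different non-targeting siRNAs, 1 for each control array, where the protocol names a single one, so each control array can differ from the others in its siRNA. The labels do not say that the replicates were separate cultures, so the p-values cover the spread among these arrays only, and that spread may be technical.

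Nuclear pores are channels through the nuclear envelope, built from many copies of a set of proteins called nucleoporins. An outer ring on each face (the Y complex) and an inner ring form the scaffold, membrane nucleoporins anchor it, and nucleoporins rich in phenylalanine-glycine repeats fill the central channel and bind transport receptors. A basket on the nuclear side and filaments on the cytoplasmic side take part in the entry and release of cargo, including exported messenger RNA.

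MED26 itself read 9.85 ± 0.02 in the controls (SD, n = 3, log2 intensity). Its changes with s18074, s18075 and s18076 were -1.10, -0.57 and -1.08 (SE 0.06 each), so s18075 left the most signal, 67.5% of control. Array medians lay between 72.3 and 73.8 on the linear intensity scale, and the number of arrays limits the precision of every value. Of the genes known in this cell line, NEFL, NEFM and INA read 11.12, 11.38 and 10.47 log2 in the controls, and PAX2 and LHX1 both read 6.54, close to the level of 6.57 that bounds the dimmest 40% of genes. Of 6 such genes measured, NEFM, NEFL and EYA1 fell in the mean of the 3 siRNAs. Markers of blood cells (4 measured, 3.94 to 7.11) and of hepatocytes and carcinoma lines (7 measured, 3.51 to 6.54) changed by -0.08 to 0.14 and by -0.13 to 0.08. Arrays numbered replicate 1 deviated from their group means together in all 4 groups (correlations of 0.326 to 0.439 across genes), and values without them are given for the calls in the mean and in the F test that they alter. A bulk measurement cannot tell fewer cells of a kind from less RNA per cell.

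Taken over the mean of the 3 siRNAs, 6 of the 29 pore genes rose, 2 fell and 21 did not pass the test. Calls were made at an adjusted p under 0.05 (limma, Benjamini-Hochberg over the 19775 genes), and changes are differences of mean log2 intensity, siRNA minus control. The genes that rose were NUP58, NUP155, NDC1, NUP88, NUP93 and NUP107, and those that fell were NUP54 and SEH1L. Rises took in 20.7% of the pore genes where 10.2% of all genes rose, and falls 6.9% where 10.2% of all genes fell. In either direction 27.6% of the pore genes were called, against 20.3% of all genes. All 29 lie above the dimmest 40% of genes. Among the 11865 brighter genes alone the shares were 34.5% and 38.1%, so the share of pore genes called was near that of these brighter genes. No closer match in brightness was made. The median change of the 29 was 0.04 and that of all genes -0.00, with 18 pore genes above 0 and 11 below. The 21 that were not called moved between -0.14 and 0.14, with 95% intervals that all lay within -0.33 to 0.30. At an unadjusted p under 0.05, 11 of the 29 differed, as did 6208 of all 19775 genes. When only the arrays numbered replicate 2 and 3 were used, 4 pore genes were called (NUP58, NUP155, NDC1 and NUP88), and when all probe sets of a gene were averaged, 5 (NUP107, NUP155, NDC1, SEH1L and, not among the 8, NUP43). With a block for replicate 1 against the rest, the 8 kept their calls and NUP43, NUP210, NUP37 and AAAS were called as well.

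With s18074, 3 pore genes rose (6.67% of all genes rose) and 2 fell (7.55% of all genes fell). With s18075, 6 rose (background 8.11%) and 1 fell (8.77%), and with s18076, 6 rose (10.3%) and 2 fell (8.62%). The 7 calls with s18075 dropped to 3 without control replicate 1 or without any single s18075 array, and to 4 without control replicate 3. NUP58, NUP155 and NDC1 were higher with each of the 3 siRNAs, 10.3% of the pore genes against 3.52% of all genes. Neither this share nor the backgrounds with each siRNA were computed for the brighter genes alone. Lower with each siRNA were 0 pore genes by limma, where 3.13% of all genes were. At an unadjusted p under 0.05 there was 1 (SEH1L), a count not made over all genes. The 3 comparisons share the control arrays, so a gene that reads low by chance in the controls is higher in all 3 at once. In all, 10 of the 29 were called with at least 1 siRNA and 19 with none. The share of all genes called with at least 1 siRNA was not computed, so this count is a description.

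**Figure D1:**
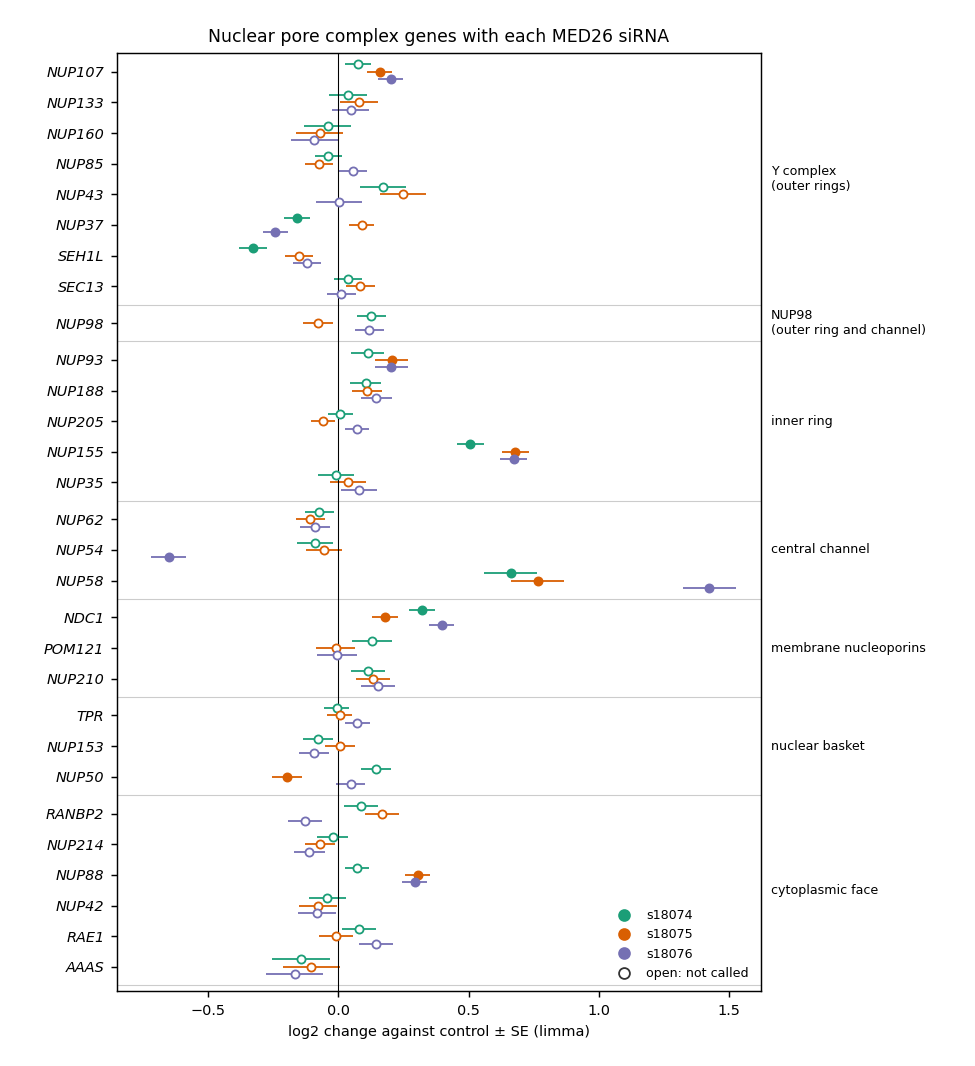
Change of each of the 29 pore genes against the control with each MED26 siRNA (log2, points; bars, SE of the limma model), ordered by place in the pore; filled points passed the test. NUP58 with s18076 stands at 1.42, NUP54 with the same siRNA at -0.65, and most other points lie within 0.25 of 0.

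The genes that rose with every siRNA encode parts of 3 different regions of the pore: the inner ring (NUP155), the central channel (NUP58) and the membrane (NDC1). The bases before their transcription starts are printed because these members moved the same way with every siRNA, and so that the letters can be set beside those of the other members. The sequences are RefSeq's on GRCh38.p14, 250 bases each, 5′ to 3′ on the gene's own strand and ending just before the start. The windows are chr5:37371107-37371356 (minus strand) for NUP155, chr13:25301375-25301624 (plus strand) for NUP58 and chr1:53838297-53838546 (minus strand) for NDC1. Capitals mark the letters CGGAAG, the core bound by ETS factors, and GGGCGG, the GC box bound by SP factors, on either strand (CTTCCG and CCGCCC on the other strand).
NUP155: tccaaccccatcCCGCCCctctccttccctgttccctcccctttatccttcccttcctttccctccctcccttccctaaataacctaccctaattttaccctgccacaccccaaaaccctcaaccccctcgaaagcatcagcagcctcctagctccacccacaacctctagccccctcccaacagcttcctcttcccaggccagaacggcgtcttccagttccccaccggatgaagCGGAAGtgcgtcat
NUP58: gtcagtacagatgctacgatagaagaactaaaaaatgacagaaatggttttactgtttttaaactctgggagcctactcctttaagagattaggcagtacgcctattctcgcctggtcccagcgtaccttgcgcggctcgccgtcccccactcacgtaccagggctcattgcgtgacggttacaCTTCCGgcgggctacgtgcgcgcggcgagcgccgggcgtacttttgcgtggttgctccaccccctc
NDC1: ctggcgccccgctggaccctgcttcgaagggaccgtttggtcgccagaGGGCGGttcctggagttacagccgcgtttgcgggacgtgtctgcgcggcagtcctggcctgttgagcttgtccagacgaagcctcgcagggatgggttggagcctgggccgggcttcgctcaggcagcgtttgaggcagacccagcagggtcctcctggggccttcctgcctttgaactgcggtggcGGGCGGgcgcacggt
In NUP155 the ETS core begins 14 bases before the start and a GC box on the other strand 238 bases before it. NUP58 holds an ETS core on the other strand, whose first printed base lies 66 bases before the start, and NDC1 holds 2 GC boxes, beginning 202 and 15 bases before the start, and no ETS core. No motif searched was found in all 3 windows.

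The same window was found for 28 of the 29 pore genes, NUP43 being the one without an entry, and 7 motifs were searched on both strands in these and in all 27305 windows of this length. CGGAAG was present in 14 of the 28 (50%), in 16.8% of all windows and in 28.1% of the 9707 windows of genes above the dimmest 40%. It was present before NUP155, NUP58, NUP54, NUP88, NUP107 and SEH1L, which were called in the mean, and not before NDC1 and NUP93. It was also present before uncalled genes such as TPR, POM121, SEC13 and NUP160. GGGCGG was present in 42.9% of the pore genes' windows, 42.3% of all and 68.5% of those of brighter genes. CCAAT was present in 35.7%, 33% and 35.2%, and the E-box CACGTG in 7.14%, 6.49% and 9.17%. The letters TGACGTCA, bound by CREB factors, were present in 10.7% (NUP133, NUP214 and NUP42), 1.77% and 3.05%, and the NRF1 core GCGCATGC in 10.7% (NUP107, NUP50 and NUP62), 2.81% and 4.92%. TATAAA was in 0 of the 28 windows, against 11.1% and 4.94%. The median GC content was 62.8% in the pore genes' windows and 58% in all. A match describes the letters, not a bound site or a cause, and the motifs do not overlap each other in the windows printed.

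The central channel is lined by the complex of NUP62, NUP54 and NUP58, whose repeats bind transport receptors. Its members did not move together. NUP58 read 8.61, 8.82 and 8.81 (log2) on the control arrays, 9.37, 9.50 and 9.35 with s18074, 9.37, 9.56 and 9.60 with s18075, and 9.94, 10.34 and 10.23 with s18076. Every siRNA array was above every control array, and the s18076 arrays were above all others. The rise was 0.66 ± 0.10 (SE) with s18074 (limma, adjusted p = 0.000984), 0.76 ± 0.10 with s18075 (adjusted p = 0.000251) and 1.42 ± 0.10 with s18076 (adjusted p = 1.79e-06), or 158%, 170% and 268% of control. The mean of the 3 was 0.95 ± 0.08 (adjusted p = 9.22e-06). The rise with s18076 exceeded that with s18074 by 0.76 (adjusted p = 0.000651) and that with s18075 by 0.66 (adjusted p = 0.000977), and the other two differed by 0.10 ± 0.10 (adjusted p = 0.68).

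The 3 dimmer NUP58 probe sets did not show this rise. They averaged 7.55, 5.71 and 5.46 over the arrays and gave mean changes of -0.03 ± 0.07, -0.34 ± 0.19 and 0.27 ± 0.13 (limma, over all probe sets, adjusted p = 0.847, 0.28 and 0.221). The mean of all 4 probe sets gave a change of 0.21 (adjusted p = 0.121), and with s18076 0.39, which still passed the test (adjusted p = 0.0244). For the mean change, 1 of the 4 NUP58 probe sets passed the test.

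NUP54 fell with s18076 alone among the siRNAs tested. Its values were 11.27, 11.07 and 11.34 on the control arrays, 11.15, 11.16 and 11.11 with s18074, 11.17, 11.13 and 11.22 with s18075, and 10.54, 10.60 and 10.59 with s18076. The s18076 arrays lay below all others, and the other siRNA arrays lay within the range of the controls. The change was -0.65 ± 0.07 with s18076 (limma, adjusted p = 3.71e-05), 63.6% of control, against -0.09 ± 0.07 with s18074 (adjusted p = 0.455) and -0.06 ± 0.07 with s18075 (adjusted p = 0.662). The difference itself passed the test, at -0.56 for s18076 minus s18074 (adjusted p = 0.000302) and -0.60 for s18076 minus s18075 (adjusted p = 0.000102). The mean fall of 0.27 ± 0.06 (adjusted p = 0.00427) was carried by s18076, and it did not pass without the replicate 1 arrays (-0.24, adjusted p = 0.0693) or over the mean of all 3 probe sets (-0.09, adjusted p = 0.326). NUP62, the third member, changed by -0.09 ± 0.05 in the mean (adjusted p = 0.211), with control arrays at 11.09, 11.18 and 11.18.

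**Figure D2:**
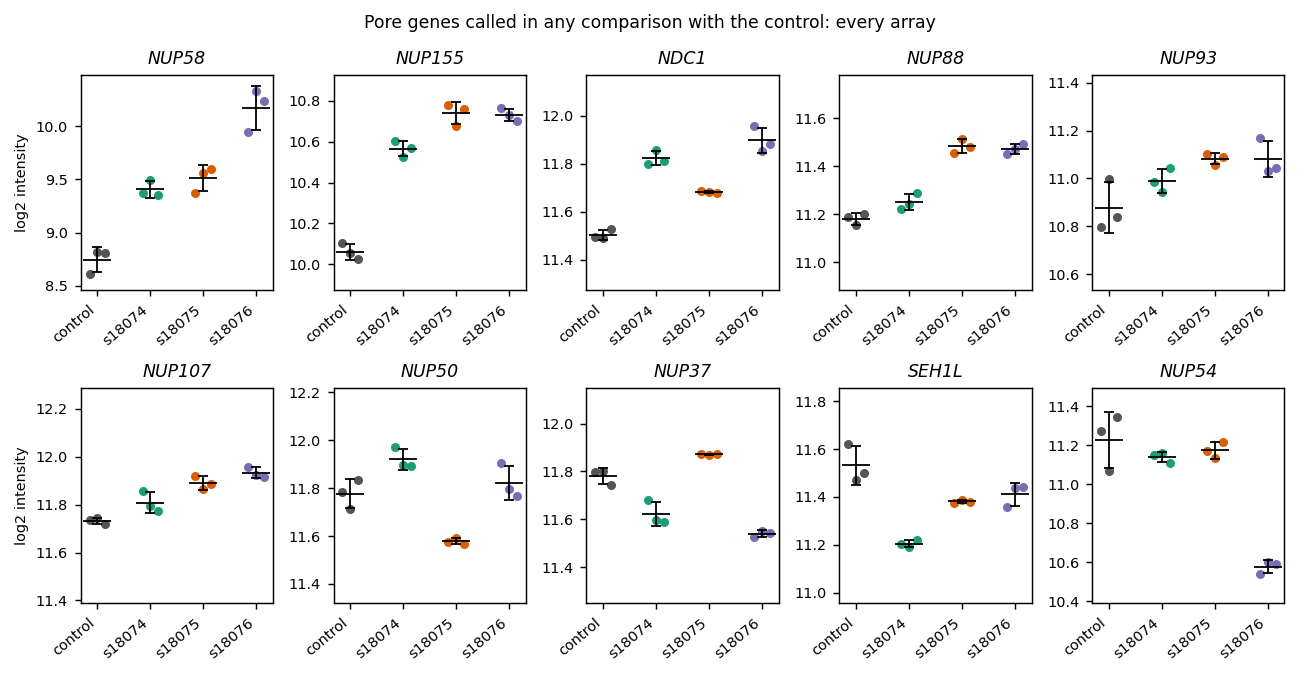
Log2 intensity on every array (points) of the 10 pore genes called in any comparison with the control, with group means (long bars) and SD (whiskers, n = 3); each panel has its own axis of equal or wider span and does not start at 0. NUP58, NUP155, NDC1, NUP88 and NUP107 lie above the controls on every siRNA array, and SEH1L lies below them. NUP37 also has no siRNA array within the range of the controls, with s18075 above it and the others below. NUP54 leaves that range with s18076 alone. The share of all genes separated in this way was not computed.

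The inner ring holds the scaffold against the membrane and links it to the channel. Of its 5 genes, NUP155 and NUP93 rose and all 5 had mean changes above 0 (median 0.12). NUP155, a scaffold nucleoporin that also contacts the membrane, read 10.10, 10.06 and 10.02 on the control arrays. It read 10.60, 10.53 and 10.57 with s18074, 10.78, 10.68 and 10.76 with s18075, and 10.76, 10.73 and 10.70 with s18076. No siRNA array overlapped the controls, and the lowest siRNA array was 10.53. The rise was 0.51 ± 0.05 (limma, adjusted p = 6.1e-05), 0.68 ± 0.05 (adjusted p = 3.54e-06) and 0.67 ± 0.05 (adjusted p = 3.79e-06), 142%, 160% and 159% of control, and the mean was 0.62 ± 0.04 (adjusted p = 1.37e-06). The siRNAs were not shown to differ for this gene (F test, adjusted p = 0.0643). NUP155 has a single probe set naming it alone, and the rise kept its call under all 21 alternatives for the mean, between 0.60 and 0.64.

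NUP93, which holds the inner ring and channel complexes together, read 10.80, 11.00 and 10.84 in the controls, 10.99, 10.94 and 11.04 with s18074, 11.10, 11.06 and 11.09 with s18075, and 11.17, 11.03 and 11.04 with s18076. The control arrays spread by 0.11 (SD), and the s18074 arrays overlapped them. Its mean rise was 0.17 ± 0.05 (limma, adjusted p = 0.0344), from 0.11 with s18074 (adjusted p = 0.308), 0.20 with s18075 (adjusted p = 0.0472) and 0.20 with s18076 (adjusted p = 0.0444). The call was lost without control replicate 1 (adjusted p = 0.164), control replicate 3 (0.124), s18074 replicate 3 (0.0586) or either of s18075 replicates 1 and 3 (0.0541 and 0.0571), and the change was 0.12 on replicates 2 and 3 alone (adjusted p = 0.234). The other inner ring genes changed by 0.12 ± 0.05 for NUP188 (adjusted p = 0.101), 0.04 ± 0.06 for NUP35 (adjusted p = 0.728) and 0.01 ± 0.04 for NUP205 (adjusted p = 0.931).

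The membrane nucleoporins anchor the pore in the envelope. NDC1, which spans the membrane and is needed to insert pores, read 11.49, 11.49 and 11.53 in the controls, 11.80, 11.86 and 11.81 with s18074, 11.69, 11.68 and 11.68 with s18075, and 11.96, 11.85 and 11.88 with s18076. All siRNA arrays were above the controls, and the s18075 arrays lay between the controls and the other siRNAs. The rise was 0.32 ± 0.05 with s18074 (limma, adjusted p = 0.000992), 0.18 ± 0.05 with s18075 (adjusted p = 0.0245) and 0.40 ± 0.05 with s18076 (adjusted p = 0.000139), with a mean of 0.30 ± 0.04 (adjusted p = 0.000237), 123% of control. It was larger with s18076 than with s18075 by 0.22 (adjusted p = 0.0129). A further NDC1 probe set rose by 0.29 ± 0.06 in the mean (limma, over all probe sets, adjusted p = 0.00589). It gave 0.22, 0.30 and 0.35 for s18074, s18075 and s18076 (adjusted p = 0.0915, 0.0173 and 0.00706). On that probe set s18075 was not the lowest, and the rise with s18074 was not called. NDC1 is the one called pore gene whose further probe set was called the same way. POM121, the membrane gene that recruits the Y complex, changed by 0.04 ± 0.06 (adjusted p = 0.744), and NUP210, a large membrane glycoprotein, by 0.13 ± 0.05 (adjusted p = 0.111, and 0.0225 with a block for replicate 1). POM121 was read at 6.98 log2 in the controls, from a probe set that does not name its near copy POM121C, and the probe sets that name both were not used.

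The Y complex builds the outer rings and is the first scaffold to assemble on chromatin after mitosis. Of its 8 genes, NUP107 rose, SEH1L fell and 6 were not called in the mean (median 0.01). SEH1L, which is also part of the GATOR complex of amino acid sensing, read 11.62, 11.47 and 11.50 in the controls, 11.20, 11.19 and 11.22 with s18074, 11.37, 11.39 and 11.38 with s18075, and 11.36, 11.44 and 11.44 with s18076. Every siRNA array was below every control array, and the s18074 arrays were the lowest. The fall passed the test with s18074, at -0.33 ± 0.05 (limma, adjusted p = 0.0017), and not with s18075 (-0.15, adjusted p = 0.0807) or s18076 (-0.12, adjusted p = 0.159). The mean was -0.20 ± 0.04 (adjusted p = 0.00653), and -0.14 without the replicate 1 arrays (adjusted p = 0.0649). The s18074 mean was lower than the s18076 mean by 0.21 (limma, adjusted p = 0.048). A dimmer SEH1L probe set gave -0.11 ± 0.05 in the mean (limma, over all probe sets, adjusted p = 0.201). With s18074, s18075 and s18076 it gave -0.18, 0.04 and -0.19 (adjusted p = 0.0968, 0.758 and 0.0774). There s18074 did not stand apart from s18076. Over all probe sets, the F test between siRNAs was not called on the brightest one (adjusted p = 0.0799).

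NUP107, a stem subunit of the Y complex, read 11.73, 11.74 and 11.72 in the controls, 11.86, 11.79 and 11.77 with s18074, 11.92, 11.86 and 11.89 with s18075, and 11.96, 11.92 and 11.92 with s18076. No siRNA array reached down to the controls, though the differences were small. The mean rise was 0.14 ± 0.04 (limma, adjusted p = 0.0203), with 0.08 for s18074 (adjusted p = 0.368), 0.16 for s18075 (adjusted p = 0.0408) and 0.20 for s18076 (adjusted p = 0.011). The call in the mean was lost without any one of the control arrays (adjusted p = 0.054 to 0.0669), and without the replicate 1 arrays (0.13, adjusted p = 0.0902).

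NUP37, a small Y subunit, differed between the siRNAs on its brightest probe set. It read 11.80, 11.80 and 11.74 in the controls, 11.68, 11.60 and 11.59 with s18074, 11.87, 11.87 and 11.87 with s18075, and 11.52, 11.55 and 11.54 with s18076. The s18075 arrays were above the controls and those of both other siRNAs below them. The change was -0.16 ± 0.05 with s18074 (limma, adjusted p = 0.047), -0.24 ± 0.05 with s18076 (adjusted p = 0.00392) and 0.09 ± 0.05 with s18075 (adjusted p = 0.261). The s18075 value exceeded the s18074 value by 0.25 (adjusted p = 0.00837), and the s18076 value was lower than the s18075 value, at -0.33 (adjusted p = 0.000744). The mean, -0.10 ± 0.04, was not called (adjusted p = 0.0895, and 0.0492 with a block for replicate 1), and the call with s18074 was lost on leaving out any of 10 of the 12 arrays in turn. A dimmer NUP37 probe set at 8.43 log2 gave -0.13, -0.04 and -0.25 with s18074, s18075 and s18076. None was called (limma, over all probe sets, adjusted p = 0.432, 0.838 and 0.0651), nor was the difference between siRNAs (F test, adjusted p = 0.303).

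The other Y complex genes changed by -0.07 to 0.14 in the mean. NUP43 gave 0.14 ± 0.07 (adjusted p = 0.21, and 0.0182 with a block for replicate 1), NUP133 0.05 ± 0.06, SEC13, which also serves in the COPII coat of secretory vesicles, 0.04 ± 0.05, NUP85 -0.02 ± 0.04 and NUP160 -0.07 ± 0.07. NUP43 was higher on every s18075 array than on every control array, and the group means differed by 0.25 ± 0.09 (limma, adjusted p = 0.076). NUP98, which is made together with the Y subunit NUP96 from 1 transcript and works in the outer ring and the channel, changed by 0.06 ± 0.05 in the mean (adjusted p = 0.463). Its values with s18075 (9.93, 9.88 and 9.91) were below those with s18076 (10.08, 10.12 and 10.11), a difference of 0.20 between these siRNAs (adjusted p = 0.0418). Both other NUP98 probe sets, which averaged 9.89 and 8.85, went the opposite way, with s18076 minus s18075 at -0.20 ± 0.05 and -0.44 ± 0.09 (limma, over all probe sets, adjusted p = 0.0495 and 0.0137). On these probe sets NUP98 fell with s18076 against the control, by 0.30 ± 0.05 and 0.36 ± 0.09 (adjusted p = 0.00318 and 0.0217). Over all probe sets, the difference on the brightest one did not pass the test (adjusted p = 0.0778).

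The basket on the nuclear side guides exported messenger RNA to the channel. Its 3 genes were not called in the mean, by limma, and 0 of them were below an unadjusted p of 0.05. TPR, the main filament of the basket, changed by 0.02 ± 0.04 (adjusted p = 0.743), and NUP153, which anchors it, by -0.06 ± 0.05 (adjusted p = 0.469). NUP50, a mobile cofactor of import, read 11.78, 11.71 and 11.83 in the controls, 11.97, 11.90 and 11.89 with s18074, 11.58, 11.59 and 11.57 with s18075, and 11.90, 11.80 and 11.77 with s18076. The s18075 arrays lay below all others and the s18074 arrays above the controls. NUP50 fell by 0.20 ± 0.06 with s18075 (limma, adjusted p = 0.0293), while the values for s18074 and s18076 were 0.14 (adjusted p = 0.116) and 0.05 (adjusted p = 0.643). The s18075 value was lower than that of s18074, at -0.34 (adjusted p = 0.00261), and that of s18076 was above it by 0.24 (adjusted p = 0.0132). The mean of -0.00 ± 0.05 (adjusted p = 0.986) stands beside values of both signs with the single siRNAs. The NUP50 call with s18075 was lost under 8 of 22 alternatives, and on leaving out any of 5 of the 12 arrays in turn. The next brightest NUP50 probe set gave -0.18 ± 0.08 with s18075 (limma, over all probe sets, adjusted p = 0.16).

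On the cytoplasmic face, where filaments release cargo and remodel exported messenger RNA, 1 of 6 genes was called in the mean. NUP88, which holds the filament complex of NUP214, read 11.19, 11.15 and 11.20 in the controls, 11.22, 11.24 and 11.29 with s18074, 11.46, 11.51 and 11.48 with s18075, and 11.45, 11.47 and 11.49 with s18076. The arrays of s18075 and s18076 were well above the controls, and those of s18074 just above them. NUP88 rose by 0.30 ± 0.05 with s18075 (limma, adjusted p = 0.000818) and by 0.29 ± 0.05 with s18076 (adjusted p = 0.000993), while s18074 gave 0.07 ± 0.05 (adjusted p = 0.392). The s18074 value was lower than both others, by 0.23 (adjusted p = 0.0107) and 0.22 (adjusted p = 0.0178). The mean rise was 0.22 ± 0.04 (adjusted p = 0.00142), and a dim second probe set at 5.47 log2 gave -0.01 ± 0.13 (limma, over all probe sets, adjusted p = 0.968).

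RANBP2, the giant filament protein that binds Ran and attaches SUMO, changed by 0.04 ± 0.05 in the mean (limma, adjusted p = 0.657). It read 11.31, 11.24 and 11.25 in the controls, 11.42, 11.49 and 11.39 with s18075, and 11.00, 11.18 and 11.23 with s18076. The s18075 arrays were above the controls and the s18076 arrays below them. Their group means differed from the control mean by 0.17 (limma, adjusted p = 0.105) and -0.13 (adjusted p = 0.218). On this probe set only the difference between these siRNAs passed the test, at -0.29 (adjusted p = 0.011). Dimmer probe sets naming RANBP2 alone, at 9.21, 8.77 and 7.65 log2, gave this difference as -0.19, -0.04 and -0.08. None of these passed (limma, over all probe sets, adjusted p = 0.133, 0.846 and 0.891). The first rose with s18075 (0.22, adjusted p = 0.0438). The second fell with s18076 (-0.26, adjusted p = 0.0277) and read -0.22 with s18075 (adjusted p = 0.0625). Probe sets that also name the RGPD copies of RANBP2 were not used, and signal from those copies on the probe sets used was not tested. AAAS, the protein lost in triple A syndrome, had the lowest mean among the uncalled genes, at -0.14 ± 0.09 (adjusted p = 0.336, and 0.0278 with a block for replicate 1), with control arrays at 10.09, 9.83 and 9.79. The export factor RAE1 gave 0.07 ± 0.05, NUP214 -0.07 ± 0.05 and NUP42, which works in mRNA export, -0.07 ± 0.06 (adjusted p = 0.401, 0.381 and 0.494).

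The 3 siRNAs differed from each other in 9 of the 29 pore genes by an F test (31%, limma, adjusted p under 0.05), where 12.6% of all genes did. The 9 were NUP54, NUP58, NUP37, NUP50, NUP88, RANBP2, NDC1, SEH1L and NUP98. For s18075 against s18074, 3 pore genes differed (6.37% of all genes did). The count was 4 for s18076 against s18074 (5.11% of all genes) and 7 for s18076 against s18075 (11%). The count of 9 dropped to 5 without s18075 replicate 2, to 4 without the replicate 1 arrays (NUP54, NUP58, NUP37 and NUP50) and to 2 over the average over a gene's probe sets. NUP37 was called by the F test under all 21 alternatives, and NUP54, NUP58 and NUP50 under 20 of 21, each lost over the mean of all probe sets. SEH1L and NUP98 were called under 10 and 9 of the 21. Without the replicate 1 arrays the adjusted p was 0.0624 for NUP88, 0.0672 for SEH1L, 0.107 for RANBP2, 0.108 for NUP98 and 0.132 for NDC1.

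Probe sets of the same gene often disagreed. The 29 genes have 72 probe sets naming them alone, of which 13 were called in the mean when the test was run over all 41091 probe sets (18.1%, against 15.4% of all). There were 8 genes with 1 probe set and 21 with several. Of the 43 probe sets that were not the brightest of their gene, 3 were called higher and 3 lower. Of the 8 genes called, 6 have another probe set, which was called the same way for 1 of them (NDC1). A probe set of TPR showed the largest of these changes. It read 7.18, 7.26 and 7.16 in the controls, 6.67, 6.60 and 6.69 with s18074, 6.46, 6.42 and 6.33 with s18075, and 6.58, 6.53 and 6.73 with s18076. All siRNA arrays were below the controls, and the change was -0.55 ± 0.07, -0.80 ± 0.07 and -0.59 ± 0.07 with the 3 siRNAs (limma, over all probe sets, adjusted p = 0.00042, 1.57e-05 and 0.00015). The brightest TPR probe set, at 11.92 in the controls, stayed between -0.01 and 0.07.

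The other further probe sets called in the mean belonged to NUP160 (-0.24 ± 0.06), NUP98 (-0.17 ± 0.04), NUP153 (0.30 ± 0.07) and NUP214 (0.21 ± 0.06), with limma adjusted p = 0.0126, 0.0185, 0.011 and 0.032 over all probe sets. The brightest probe set of each of these genes was not called, at -0.07, 0.06, -0.06 and -0.07 in the same order, so for NUP98, NUP153 and NUP214 the signs were opposite. NUP93 was called on its brightest probe set over all genes and not over all probe sets (adjusted p = 0.0544). Which transcript each probe set reads was not tested.

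**Figure D3:**
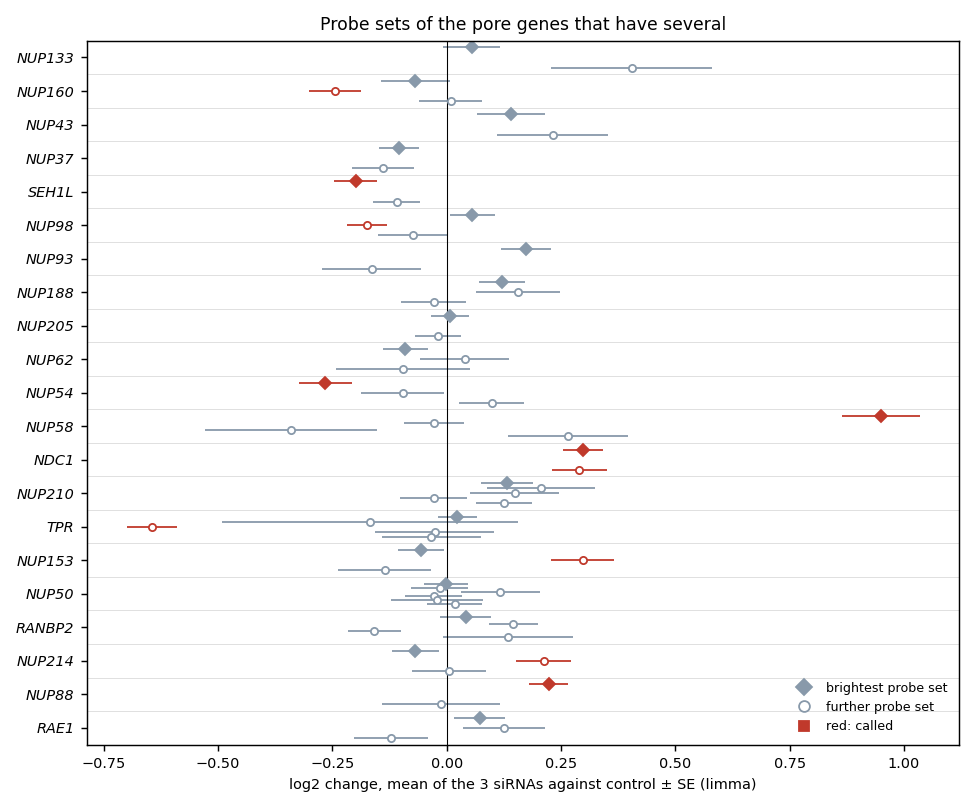
Mean change of the 3 siRNAs against the control (log2 ± SE, limma) for every probe set of the 21 pore genes with several; diamonds are the brightest probe set of the gene, open circles the others, red those called. NUP58 has 1 probe set at 0.95 and 3 others between -0.34 and 0.27, TPR has 1 at -0.64, and both NDC1 probe sets are called near 0.30.

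Other genes of nuclear transport were read from lists, described by counts beside the 10.2% of all genes higher and 10.2% lower. Most of the listed genes lie above the dimmest 40%. Among the 11865 brighter genes, tested alone, 38.1% were called in either direction, and the lists were not counted in that test. Among 29 measured importins, exportins and Ran cycle genes (of 31 listed), 2 rose and 8 fell, with a median of -0.07. RCC1, the exchange factor that loads Ran with GTP on chromatin, fell by 0.47 ± 0.05 (limma, adjusted p = 2.28e-05), and by 0.42, 0.46 and 0.55 with s18074, s18075 and s18076. The import receptor gene TNPO3 fell by 0.37 ± 0.09 (adjusted p = 0.00874), with values of -0.16, -0.98 and 0.02, so most of its fall came from s18075. The importin alpha genes KPNA1 and KPNA6 rose by 0.34 ± 0.05 (adjusted p = 0.000442) and 0.32 ± 0.04 (adjusted p = 0.000214).

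Among 22 measured mRNA export factors (of 26 listed), 2 rose and 7 fell, with a median of -0.05. The cap-binding subunit NCBP2 fell by 0.52 ± 0.04 (limma, adjusted p = 8.25e-06), with -0.96 for s18076 against -0.32 and -0.29 for s18074 and s18075. DDX19B, a helicase that works at the cytoplasmic face, fell by 0.31 ± 0.06 (adjusted p = 0.00173), and the THO complex gene THOC6 by 0.29 ± 0.07 (adjusted p = 0.0133). The export adaptor ALYREF rose by 0.28 ± 0.07 (adjusted p = 0.0119). Among 18 genes of the nuclear lamina and envelope, 0 rose and 4 fell by limma, and the median was 0.01. At an unadjusted p under 0.05, 7 of the 18 differed in either direction, as did 6208 of all 19775 genes. Those that fell were TMEM43 (-0.31 ± 0.05), the lamin B receptor LBR (-0.23 ± 0.05), emerin (EMD, -0.20 ± 0.05) and TMPO (-0.20 ± 0.05), with adjusted p = 0.00101, 0.00915, 0.0166 and 0.0156.

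Of 5 pore genes or their relatives outside the naming rule, 1 was called in the mean. NUP62CL, a NUP62-like gene, rose by 0.29 ± 0.05 (limma, adjusted p = 0.00137), with 0.48 and 0.54 for s18074 and s18076 but -0.15 for s18075. AHCTF1, which seeds pore assembly on chromatin, changed by -0.17 ± 0.07 in the mean (adjusted p = 0.128) and fell by 0.47 ± 0.09 with s18075 (adjusted p = 0.00286). POM121C, GLE1 and NUP210L changed by -0.13 ± 0.10, 0.01 ± 0.04 and -0.05 ± 0.10, and were not called (adjusted p = 0.399, 0.895 and 0.77).

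**Figure D4:**
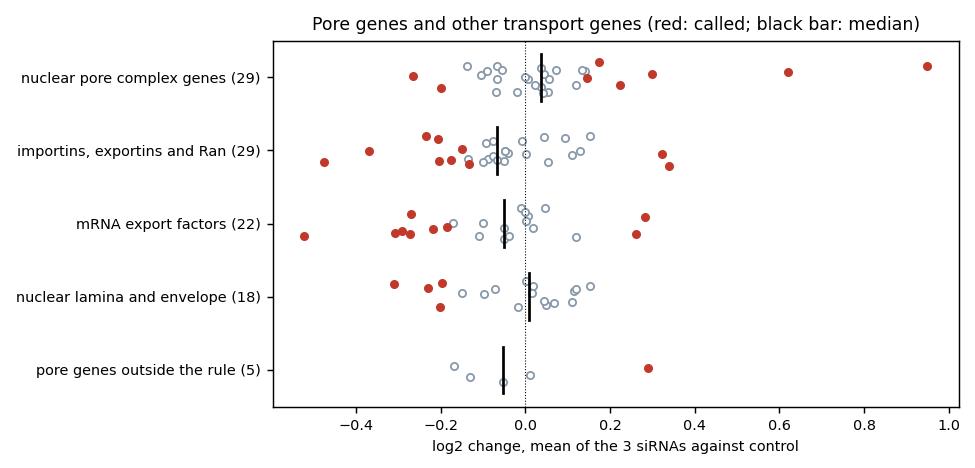
Mean change of the 3 siRNAs against the control (log2) for each gene of the pore and of 4 other lists, with the number of genes measured in parentheses; red points passed the test and black bars are medians. The medians lie between -0.07 and 0.04, and the 2 pore genes farthest to the right are NUP58 and NUP155.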

How the data were processed

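Expression was measured on 12 arrays in 4 groups of 3. The deposited values are linear intensity values per probe set. Per the submitters' processing notes they were computed by RMA, with affy 1.24.2, and the annotation used by the authors is not given in the sources used here. RMA brings all arrays to 1 scale, which removes any change in a cell's total RNA. A log2 scale had been assumed, so values were turned to log2 with no pseudocount.

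Of 54675 probe sets, 41091 name 1 gene in the platform annotation. Each of 19775 genes was represented by its brightest such probe set over all arrays, and no dim gene was left out. Group means were estimated by linear models (limma 3.58.1, R 4.3.3; lmFit, then contrasts.fit, then eBayes with 8 residual degrees of freedom), with Benjamini-Hochberg adjustment over all genes. The error of the mean over siRNAs leaves out the spread between siRNAs. The procedure was tested on simulated arrays drawn independently of each other. They lacked the shared deviation of the replicate 1 arrays, so that test does not cover it.

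The members, lists and tests were chosen with earlier results of these data known. Values on every array are given for members called against the control, and up to 4 called genes are named from each transport list; NUP62, AAAS, RANBP2, NUP98 and the TPR probe set were given array values beyond that rule. Promoter windows are RefSeq's, GRCh38.p14. Alternatives were 2 further scalings, a filter on dim genes, the mean of all probe sets, another variance model, array weights, blocks for replicate number and for replicate 1, fits on fewer arrays, and leaving out each array in turn.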

Additional observations from a re-analysis of the deposited data

Results flagged for a closer look

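Among the pore genes, 9 responded differently to the 3 MED26 siRNAs by a limma F test of the difference between siRNAs, Benjamini-Hochberg adjusted over all genes. The adjusted p was 0.000106 for NUP54, which was lower with s18076 than with the other siRNAs, and 0.000454 for NUP58, which was highest with s18076. For NUP37 it was 0.0014, with s18074 and s18076 below the control on the brightest probe set and s18075 above it but not called. It was 0.00319 for NUP50, lowest with s18075, and 0.0078 for NUP88, lowest of the siRNAs with s18074. For RANBP2 it was 0.0216, with s18075 highest and s18076 lowest on its brightest probe set. On a further RANBP2 probe set s18074 read 8.90 against 8.67 with s18075. The adjusted p was 0.028 for NDC1, which rose least with s18075 on its brightest probe set. It was 0.0416 for SEH1L, which fell most with s18074 on its brightest probe set, and 0.0418 for NUP98, lowest with s18075 on its brightest probe set. On both other NUP98 probe sets s18076 was lowest, at 9.72 against 9.92 with s18075 and at 8.55 against 8.98 (log2 intensity; limma F test over all probe sets, adjusted p = 0.0705 and 0.0144). MED26 itself differed between the siRNAs (adjusted p = 0.000155), and its part in these differences was not tested. NUP98 lost its call in the F test on leaving out any of 9 of the 12 arrays in turn, SEH1L on any of 8, NDC1 on any of 5 and RANBP2 on any of 2, with adjusted p up to 0.164, 0.144, 0.0996 and 0.0666, and the other 5 on none.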

How the results depend on the processing

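In the mean of the 3 siRNAs 8 pore genes were called, against 5 over the average over a gene's probe sets (4 of the 8, and NUP43) and 4 on replicates 2 and 3 alone. The F test count of 9 became 2 and 4 under these settings, and the count of 7 with s18075 became 4 and 4, and 3 when s18075 was fitted with the controls alone. Leaving out each array in turn gave 3 to 9 calls with s18075, 5 to 9 by the F test and 6 to 8 in the mean. Counts with s18074 and s18076 stayed within 1.5 times of 5 and 8 under every alternative run. With the replicate number as a replicate block, 11 pore genes were called in the mean (the 8, and NUP43, NUP210 and AAAS, adjusted p = 0.0296, 0.0358 and 0.0332), 6, 7 and 10 with s18074, s18075 and s18076, 11 by the F test and 16 probe sets. Same-numbered arrays deviated together for replicate 1, and among replicate 2 and 3 pairs in 3 and 4 of 6 cases, so the numbers were not taken to pair the samples. A block for replicate 1 against the rest raised the 13 called probe sets to 23. Of 608 values of called pore genes under the alternatives, 509 kept direction and call, 98 lost the call and 1 reversed, NUP93 with s18075 over the mean of all probe sets (-0.0015). The dimmer NUP93 probe set in that mean averaged 3.13 log2. The mean changes of NUP155 and NDC1 kept their calls under all 21 alternatives run. NDC1 with s18075 alone lost its call under 7 of 22, and on leaving out any of 5 of the 12 arrays in turn. NUP107, with s18075, lost its call under 14 of 22, NUP37 with s18074 under 15, and NUP93 with s18075 and s18076 under 16 of 22 each, the reversal counted. With 3 arrays a group, changes as small as those of the 21 uncalled genes were often not separable from the spread, and calls of dim probe sets near background were not weighed by a detection test. The cause of these shifts was not tested.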
